A study of Mus musculus with 6 samples.

Results

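Dusp1, Dusp2, Dusp4, Dusp5, Dusp6, Dusp10 and Dusp16 encode dual-specificity MAP kinase phosphatases, and the open chromatin of these 7 genes was examined in regulatory T cells (Treg cells) with and without the transcription factor Bcl11b. A peak was counted for a gene when its midpoint lay in the gene, or lay between genes with that gene as the nearest protein-coding gene within 100 kb. By this rule 94 of the 74440 peaks in both lists belonged to the 7 genes, 48 in the WT list and 46 in the KO list. The measurement was ATAC-seq, in which a transposase inserts adapters into accessible DNA. The WT mice carried Bcl11b w/w with Foxp3-IRES-YFP-Cre and the KO mice Bcl11b f/f with the same Foxp3-IRES-YFP-Cre, both on a C57BL/6 background. Cre was thus present in both groups and was driven by the Foxp3 gene, so it is meant to act in cells that have turned Foxp3 on. In which cells the floxed allele was removed was not tested here. CD4+YFP+ cells were sorted from spleen and draining lymph nodes, with 100000 cells lysed for each of 3 samples per group. The sources used here do not give the age or sex of the mice.

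MAP kinases (ERK, JNK and p38) carry signals from the T cell receptor and from stress to the nucleus, and they are active only while a threonine and a tyrosine in their activation loop are both phosphorylated. Dual-specificity MAP kinase phosphatases remove both phosphates. Several of their genes are themselves switched on by MAP kinase signalling, so the enzymes act as negative feedback. Dusp1, Dusp2, Dusp4 and Dusp5 encode inducible nuclear enzymes, Dusp6 a cytoplasmic enzyme for ERK, and Dusp10 and Dusp16 enzymes that act mainly on JNK and p38.

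The files on mouse build mm10 hold 38258 peaks for WT and 36182 for KO, each list made jointly from the 3 samples of a genotype. They contain neither read counts nor peak heights, so depth and replicate spread are unknown and every comparison here is a description of 2 lists without a test. In such pooled cells a site open in fewer cells and a site less open in each cell cannot be told apart. A peak that overlapped no peak of the other list is called WT-only or KO-only, although the site may still have been accessible there below the peak threshold. Peaks are numbered within each chromosome, and the numbers present made up 65.2% of the numbers up to the highest in the WT list and 70.6% in the KO list, so an unmatched peak may have had a partner that was removed, which was not tested. Of the marker genes checked, 4 of 6 Treg genes had a peak within 1 kb of a gene end or start in both lists (Foxp3 and Tnfrsf18 did not), as had 4 of 5 T cell genes in the WT list and 5 of 5 in the KO list (Cd4 in the KO list alone). For B cells this number was 0 of 4 and for non-lymphoid genes 0 of 4 in both lists, while Cd8b1, Cd14 and Eomes had such a peak in both.

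The start sites of the Dusp genes carried peaks in both genotypes. Of the 7 genes, 6 matched in the RefSeq promoter table (GRCm38.p6, whose coordinates are those of mm10), and Dusp4 did not. In all 6 the window from 250 bases before to 50 bases after the start site met a peak in both lists, which was also true of 41.6% of 17492 protein-coding genes with such a window. A further 3.18% met a peak in the WT list alone and 2.71% in the KO list alone. Windows of 4 genes are printed below, those of Dusp1 and Dusp5 because they hold rare motifs, that of Dusp10 because its peak stood nearly first in both lists, and that of Dusp16 because its start-site peak stood latest of the 6 in both lists. Capitals mark the cAMP response element TGACGTCA in Dusp1, the CArG box (the core of the serum response element) in Dusp5, and the SP/KLF motif GGGCGG, read on either strand, in all 4.
Dusp1, chr17:26508423-26508722, minus strand: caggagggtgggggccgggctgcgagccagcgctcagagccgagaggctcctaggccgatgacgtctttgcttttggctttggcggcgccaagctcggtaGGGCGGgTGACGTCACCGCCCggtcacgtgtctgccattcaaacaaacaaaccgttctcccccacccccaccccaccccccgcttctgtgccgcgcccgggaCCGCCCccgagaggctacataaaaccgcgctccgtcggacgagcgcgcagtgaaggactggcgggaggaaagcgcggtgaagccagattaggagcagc
Dusp5, chr19:53528895-53529194, plus strand: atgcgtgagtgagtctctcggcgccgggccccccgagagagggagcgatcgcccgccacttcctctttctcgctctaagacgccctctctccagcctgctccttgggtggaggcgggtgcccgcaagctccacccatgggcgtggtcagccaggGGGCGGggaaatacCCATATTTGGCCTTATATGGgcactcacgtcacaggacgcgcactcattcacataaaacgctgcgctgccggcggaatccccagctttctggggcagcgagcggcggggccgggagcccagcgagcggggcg
Dusp10, chr1:184034131-184034430, plus strand: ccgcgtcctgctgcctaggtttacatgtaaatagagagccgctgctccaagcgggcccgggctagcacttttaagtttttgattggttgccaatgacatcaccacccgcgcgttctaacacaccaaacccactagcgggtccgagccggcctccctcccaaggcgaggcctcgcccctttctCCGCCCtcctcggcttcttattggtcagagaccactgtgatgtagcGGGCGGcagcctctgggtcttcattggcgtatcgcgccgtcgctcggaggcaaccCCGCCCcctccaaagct
Dusp16, chr6:134792579-134792878, minus strand: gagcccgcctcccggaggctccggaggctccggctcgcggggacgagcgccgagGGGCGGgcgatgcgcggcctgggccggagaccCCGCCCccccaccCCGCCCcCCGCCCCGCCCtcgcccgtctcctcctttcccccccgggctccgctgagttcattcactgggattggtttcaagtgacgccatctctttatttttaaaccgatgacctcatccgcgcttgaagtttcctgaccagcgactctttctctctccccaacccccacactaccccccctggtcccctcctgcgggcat

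The windows differed in where the peaks lay relative to these motifs (positions are counted from the start site as +1). At Dusp5 the 2 CArG boxes, at -82 to -73 and -72 to -63, lay inside the peak of both lists. At Dusp1 the cAMP response element at -143 to -136 lay outside both peaks, which covered -250 to -169 in the WT list and -250 to -156 in the KO list. At Dusp10 the SP/KLF matches at -68 and -22 lay inside both peaks, and the one at 34 inside the WT peak alone. The KO peak there ended at 26. At Dusp2 the SP/KLF match at -94 lay inside the KO peak alone, and its other 2 matches lay outside both peaks. At Dusp16 the 5 SP/KLF matches, of which those starting at -144 and -139 overlap each other by a base, lay outside both peaks. Peak length was almost constant within a list and differed between the lists, so a peak edge need not mark where open chromatin ended. The place of a motif inside or outside a peak is therefore no measure of accessibility at the motif. The cAMP response element was found in 2.23% of 21263 protein-coding windows, the CArG box in 1.52% and GGGCGG in 46.2%. In the windows that met a peak in both lists these shares were 4.09%, 1.21% and 70.3%. The window of Dusp6 held none of the 11 motifs searched. No window of the 6 held AP-1 (TGANTCA), ETS (CCGGAAGT), EGR (GCGTGGGCG), NF-kB, NFAT (TGGAAA), RUNX (TGTGGT), TCF/LEF (CTTTGAA) or FOX (TGTTTAC) letters on either strand. Over all windows these were found, in the same order, in 6.99%, 5.15%, 0.828%, 0.423%, 19.3%, 15.0%, 4.54% and 3.01%. Among windows with a peak in both lists, as at the 6 Dusp genes, the highest of these shares were 15.0% (NFAT), 12.0% (RUNX) and 11.4% (ETS). How often 6 windows lack all of these motifs was not computed. Whether their absence sets the Dusp genes apart was thus not tested. GC content ran from 57.3% at Dusp6 to 70.7% at Dusp2, against a median of 56.3% over all windows and 62.0% over those with a peak in both lists.

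Over the whole set shared sites only slightly outnumbered genotype-specific sites, which were split nearly evenly. The 7 genes had 62 sites, of which 32 were shared, 16 were found in WT alone and 14 in KO alone. Over all genes with a peak these numbers were 26428, 10468 and 8635, a larger shared part. At the 7 genes WT-only peaks were 33.3% of the WT peaks, beside 29.5% of all WT peaks. KO-only peaks were 30.4% of their KO peaks, beside 25.4% of all KO peaks. The KO-only share of the genotype-specific peaks was 46.7% (exact Clopper-Pearson 95% interval 28.3 to 65.7%, counting error only) and 45.4% over all assigned peaks, so the set as a whole stood at the background. The split varied with the part of the lists that was counted. Among the earlier 50% of the peaks of each list, ordered by peak number, 9 KO-only and 5 WT-only peaks belonged to the 7 genes, where 54.5% of all such assigned peaks were KO-only. That part ends at 36.6% of the highest peak number of a chromosome in the WT list and at 38.7% in the KO list, and with the limit at 50% of the highest number there were 10 of each (49.6% KO-only over all assigned peaks). Inside the genes or within 10 kb of them, 11 KO-only and 8 WT-only peaks were counted, beside a KO-only share of 45.4% over all genes. Leaving out Dusp4, 15 peaks found in WT alone and 9 found in KO alone remained at the other 6 genes. Dusp4 had the largest KO-only surplus of the 7, so leaving it out moves the split toward WT by the choice of gene. The genes were rich in peaks for their size: 6.94 WT and 6.65 KO peaks fell in each 100 kb that the rule gives to them, against 1.89 and 1.80 over all protein-coding genes.

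**Figure D1:**
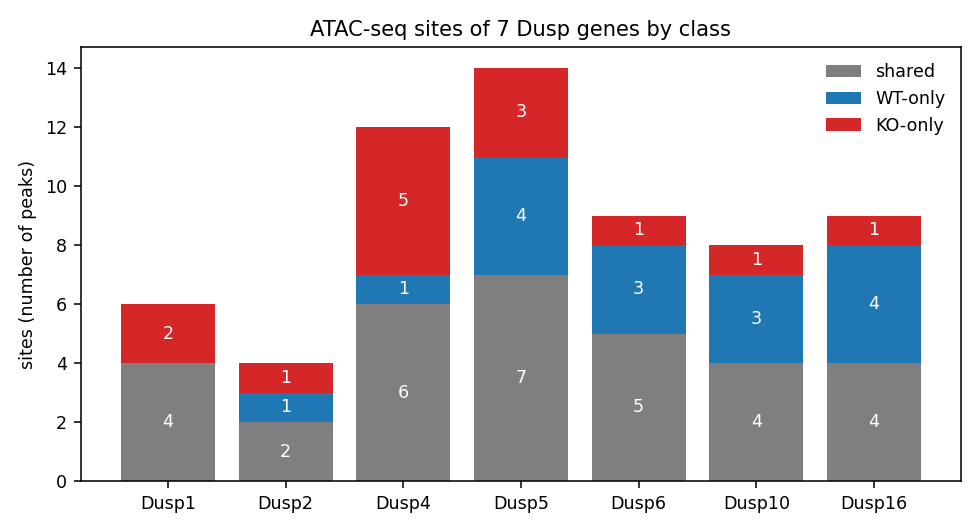
Number of ATAC-seq sites (vertical axis) of each Dusp gene, stacked as shared, WT-only and KO-only. KO-only sites outnumber WT-only sites at Dusp1 (2 against 0) and Dusp4 (5 against 1), and WT-only sites outnumber KO-only sites at Dusp5, Dusp6, Dusp10 and Dusp16.

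The split differed from gene to gene. KO-only peaks were more numerous at Dusp1 and Dusp4, WT-only peaks at Dusp5, Dusp6, Dusp10 and Dusp16, and Dusp2 had 1 of each. A surplus of at least 2 KO-only peaks was seen at 2 of the 7 genes (5.20% of all 14672 genes with a peak, 13.5% of the 3673 genes with 4 to 14 sites, the range of the 7) and a surplus of at least 2 WT-only peaks at 3 of 7 (8.04% and 22.5%). Both kinds of specific peak were present at 6 of the 7 genes, beside 22.0% of all genes with a peak and 58.3% of those with 4 to 14 sites. In order of sites the genes were Dusp5 (14), Dusp4 (12), Dusp6 and Dusp16 (9 each), Dusp10 (8), Dusp1 (6) and Dusp2 (4), where the median gene with a peak had 2. With no replicate values, no neighbours in this order could be tested against each other.

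**Figure D2:**
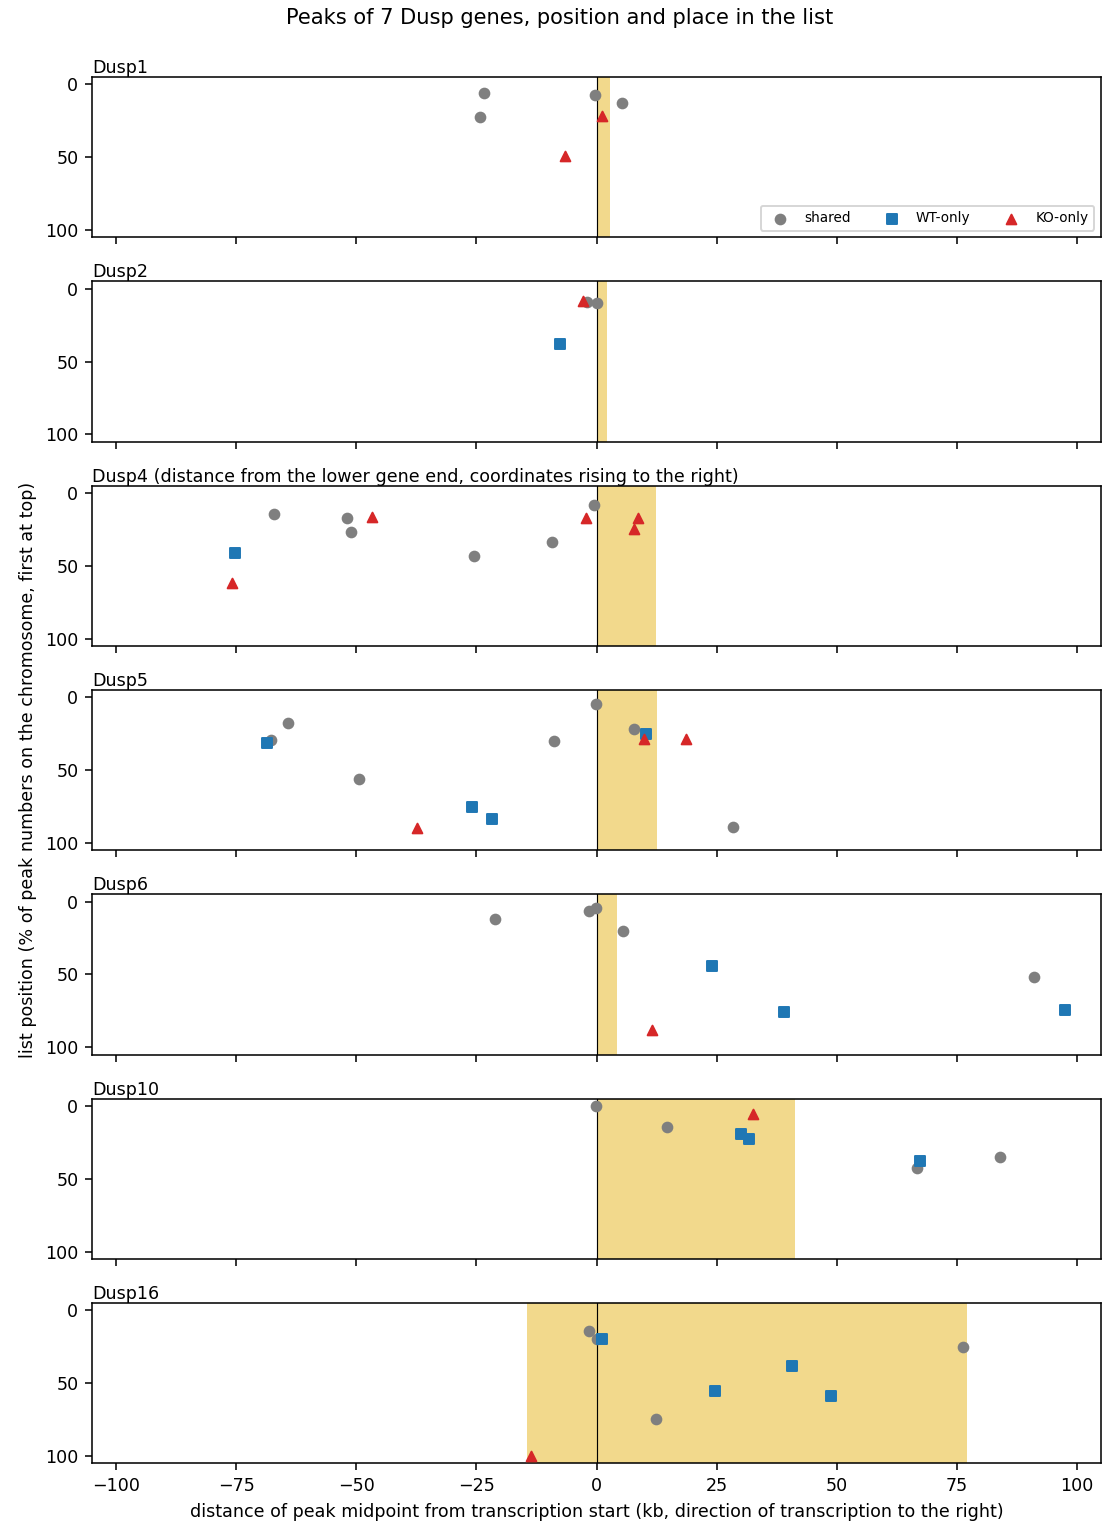
Each panel shows 1 gene, with the distance of each peak midpoint from the transcription start in kb on the horizontal axis (for Dusp4 from its lower gene end) and the place in its list on the vertical axis, first at the top; the gene is shaded, and shared peaks are placed by the WT list. A shared site stands at the start site of every gene that has one in the promoter table, but 14 shared sites lie 10 to 100 kb from their gene. Of the 5 KO-only sites of Dusp4, 4 stand early in the list, on both sides of its lower gene end. The fifth stands at 61.9%.

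Dusp4, whose product acts on ERK and JNK in the nucleus, had the largest KO-only surplus of the 7. It lies on chromosome 8 from 34807610 to 34819894 and had 6 shared, 5 KO-only and 1 WT-only sites. A difference this large or larger was reached by 0.491% of all genes with a peak. Only 3.04% of these genes had at least the 12 sites of Dusp4, and genes with few sites cannot reach such a difference. The share among genes with as many sites was not computed. The KO-only peaks at 34815355 to 34815547 and 34816134 to 34816326 were the only peaks of either list inside the gene. A further KO-only peak at 34805286 to 34805478 lay 2.23 kb below the gene, next to the shared peak at 34806905 to 34807123 (WT list), and one at 34760679 to 34760871 lay 46.8 kb below it. The fifth, at 34731664 to 34731856, was separated from the WT-only peak of the gene by 472 bp and stood at 61.9% of the peak numbers of its chromosome. The shared sites reached from 0.596 to 67.1 kb below the gene in a stretch with no other protein-coding gene. No peak counted for Dusp4 lay on the other side, where Tnks is the next gene. The KO-only peak at 34816134 to 34816326 lay 12.9 kb from Tnks, so the rule leaves Dusp4 little room on that side. The surplus was 3 or 4 peaks in each of the 8 other settings tried.

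Dusp1, an early response gene whose nuclear product acts on p38 and JNK, had no WT-only peak. The gene lies on chromosome 17 from 26505591 to 26508472 on the minus strand. Its KO-only peaks stood inside the gene at 26507275 to 26507467, 1.10 kb after the start site, and upstream at 26514914 to 26515106, 6.54 kb before it. The 4 shared sites were the start-site peak whose window is printed above, a site 5.38 kb past the start and a pair 23.4 and 24.3 kb before it. The surplus of Dusp1 was 1 or 2 peaks in all 9 other settings tried.

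Dusp2, which encodes a nuclear phosphatase found mostly in blood cells, had the fewest sites. Shared peaks lay on its start site and 1.90 kb before it (gene at 127336159 to 127338377 on chromosome 2). The KO-only peak at 127333311 to 127333503 was 2.75 kb before the start and 643 bp from the nearest WT peak, and the WT-only peak at 127328493 to 127328711 was 7.56 kb before it. All 3 sites upstream of the gene lay in the noncoding gene Gm46762. Astl is the next gene beyond Dusp2, and with every peak within 50 kb counted, Dusp2 had 3 KO-only and 1 WT-only peaks.

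Dusp5, a nuclear phosphatase of ERK, had 7 shared, 4 WT-only and 3 KO-only sites spread from 68.6 kb before to 28.4 kb after its start (chromosome 19, gene at 53529145 to 53541809). Inside the gene, the KO-only peak at 53538850 to 53539042 and the WT-only peak at 53539401 to 53539619 stood 358 bp apart, with a shared site 7.76 kb after the start. Late in the lists, WT-only peaks lay 26.0 and 21.7 kb before the start and a KO-only peak 37.4 kb before it. Within 10 kb of the gene the direction turned, with 2 KO-only and 1 WT-only peaks. Of all genes with a peak, Arhgap25 and Ppp2r5a had the same 3 counts as Dusp5, and Arhgap15, B3gnt2 and Camk4 were among those that differed from it by 1 site.

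Dusp6, the cytoplasmic phosphatase of ERK, kept the sites nearest to its start in both lists. These shared sites lay on the start site, 1.52 kb before it and 5.55 kb after it (chromosome 10, gene at 99263231 to 99267489). Other shared sites lay 21.1 kb before it and 91.0 kb after it. Its genotype-specific sites lay after the gene, with the KO-only peak 11.5 kb and the WT-only peaks 24.0, 39.1 and 97.4 kb from the start site. Within 10 kb of the gene the direction therefore turned, to 1 KO-only and 0 WT-only peaks, and with every peak within 50 kb it was 1 against 5.

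Dusp10, whose product acts on JNK and p38, had the earliest start-site peak of the set and the earliest KO-only peak. The start-site peak was the one at 0.180% of the peak numbers of chromosome 1 in the WT list and at 0.183% in the KO list. The midpoint of this peak also lay 0.344 kb (WT list) and 0.312 kb (KO list) from another protein-coding gene, 1700056E22Rik. Which of the 2 genes it serves was not tested. Within Dusp10 (184034381 to 184075636), 14.7 kb after the start, lay a second shared site. Farther into the gene, 30.1 to 32.6 kb after the start, the lists differed. There the WT list had unmatched peaks at 184064361 to 184064579 and 184066082 to 184066300, and the KO-only peak at 184066914 to 184067106 followed 613 bp behind the latter. That KO-only peak stood at 5.38% of the peak numbers of its chromosome, and 1.06% of all KO-only peaks stood as early. The third WT-only peak lay 67.3 kb after the start, 366 bp from the nearest KO peak, itself a shared site. Dusp10 had a surplus of 1 or 2 WT-only peaks in all 9 other settings.

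Dusp16, a phosphatase acting mainly on JNK, had 4 WT-only, 1 KO-only and 4 shared sites, all inside the gene (chromosome 6, 134715468 to 134807063, minus strand). The WT-only peak at 134791357 to 134791575 lay 1.16 kb after the start site of the promoter table. The other WT-only peaks lay 24.7, 40.7 and 48.8 kb after it, and no KO peak was nearer than 11.9 kb to any of these. The KO-only peak, 13.7 kb before that start site and in the part of the gene that the noncoding gene 1700055D16Rik overlaps, stood at 99.7% of the peak numbers, almost the last of its chromosome. The surplus of WT-only peaks was between 1 and 4 in all 9 other settings.

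The genotype-specific peaks of the Dusp genes stood earlier in the lists than such peaks did in general. List position is given as the peak's number as a percentage of the highest number on its chromosome, so a low value is early. The labels do not say that this order ranks peak strength, and positions in lists of different lengths show no change in accessibility. The 14 KO-only peaks had a median position of 26.7%, against 61.5% over all KO-only peaks, and 7 of 14 stood in the first 25%, where 12.9% of all KO-only peaks stood. These 7 belonged to Dusp1 (1), Dusp2 (1), Dusp4 (4) and Dusp10 (1). The 16 WT-only peaks had a median of 39.9% against 63.3%, and 3 of 16 were in the first 25% (9.10% of all WT-only peaks), at Dusp10 (2) and Dusp16 (1). Shared peaks of the set were early too, at a median of 18.6% in the WT list and 17.3% in the KO list, against 26.7% and 31.6% over all shared peaks.

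**Figure D3:**
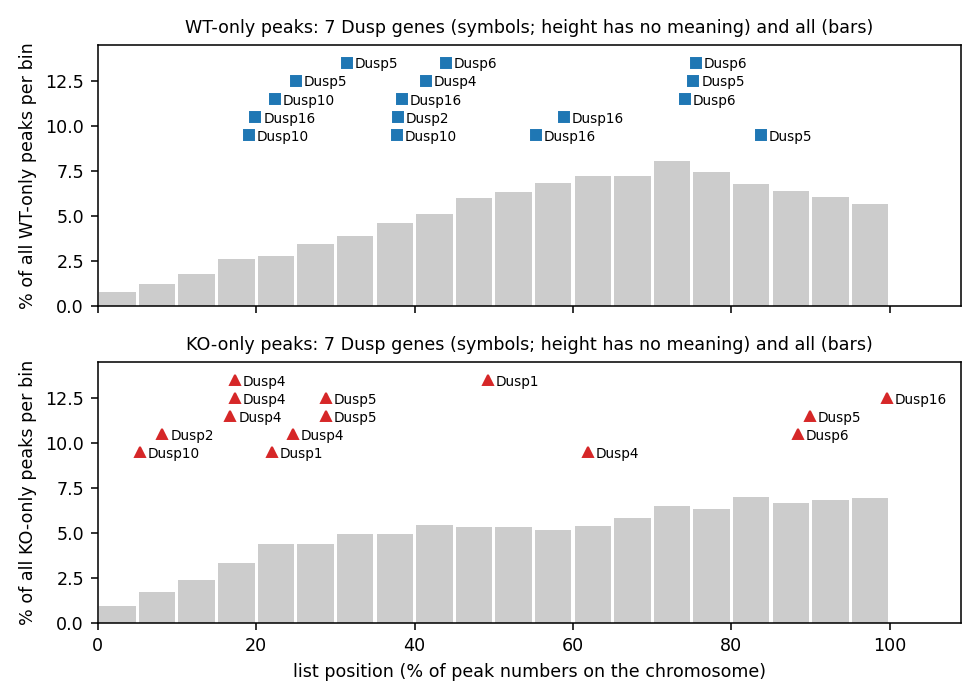
List position in percent (horizontal axis) of the WT-only peaks (upper panel) and KO-only peaks (lower panel) of the Dusp genes as labelled symbols, over bars that give the percentage of all such peaks per 5% bin. The KO-only symbols gather at the left, with Dusp10 at 5.38% and Dusp2 at 8.18%, whereas the bars are higher to the right.

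Some of these specific peaks were close neighbours of peaks in the other list. Of the 16 WT-only peaks 3 lay within 500 bp of a KO peak (19.8% of all WT-only peaks did), and of the 14 KO-only peaks 2 lay within 500 bp of a WT peak (27.9% of all). The pairs at Dusp4 (472 bp) and Dusp5 (358 bp) joined a WT-only with a KO-only peak. The KO-only peaks inside Dusp4 were the opposite case, at 8.23 and 9.01 kb from the nearest WT peak.

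Shared sites moved little between the lists at the median, but single sites moved in both directions. Of the 32 shared sites 15 stood earlier in the KO list and 17 later, with a median difference of 0.04 percentage points (KO minus WT), where all 26975 shared WT peaks had a median of 3.26 and 32.3% stood earlier in the KO list. Over all shared pairs the 5th and 95th percentiles of this difference were -19.5 and 31.6, and 0 of the 32 lay outside them. The differences of the 32 ran from -19.1 to 29.1 percentage points, both ends at Dusp5. There the far upstream sites stood earlier in the KO list: the one 64.2 kb before the start at 17.7% in WT and 7.03% in KO, the one 67.8 kb before it at 29.3% and 10.2%, and the one 49.4 kb before it at 56.4% and 37.5%. The one at 67.8 kb lay in the noncoding genes Mirt1 and 4833407H14Rik, and 70.7 kb from Smndc1, the next protein-coding gene. The nearer site of Dusp5, 8.95 kb before the start, stood later, at 29.9% and 58.9%. Other sites that stood later in the KO list were the Dusp4 site 25.5 kb below the gene (43.0% and 70.5%), the Dusp10 site 66.6 kb after the start (42.4% and 61.8%) and the start-site peak of Dusp16 (19.6% and 34.9%). At Dusp1 the upstream neighbours changed order: the site 23.4 kb before the start stood at 5.85% in WT and 25.2% in KO, and the one 24.3 kb before it at 22.6% and 13.7%. Among WT-list neighbours in 10% bins, 5 of the 32 lay outside the middle 90% of shared peaks, 2 of them at Dusp1, 2 at Dusp5 and 1 the start-site peak of Dusp10, which stood ahead of nearly all others in both lists.

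**Figure D4:**
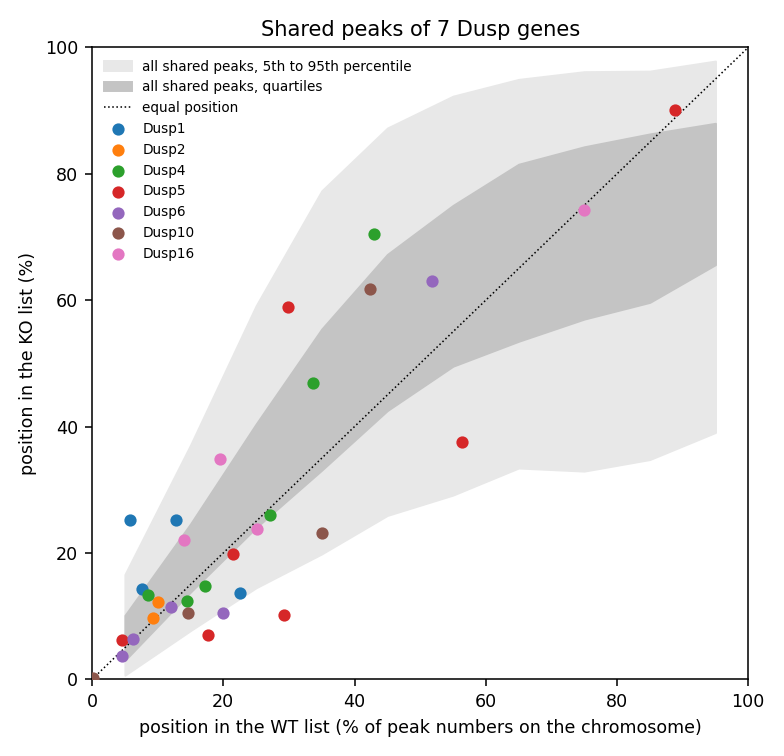
Position of each shared Dusp site in the WT list (horizontal axis, percent) and in the KO list (vertical axis, percent), coloured by gene, over the quartile and 5th to 95th percentile bands of all shared peaks in 10% bins of the WT position. The Dusp5 sites at 17.7% and 29.3% in WT fall below the bands and the Dusp1 site at 5.85% lies above them. The bands are drawn through the bin middles, so a site just outside the limit of its bin can lie inside the drawn band.

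By distance from the gene, 20 sites lay inside the genes, of which 7 were shared, 7 WT-only and 6 KO-only. Thus 35.0% of these sites were shared, beside 57.9% of the sites inside all genes. Dusp16 alone held 9 of the 20, of which 4 were shared, 4 WT-only and 1 KO-only. The start-site peaks of Dusp1, Dusp5, Dusp6 and Dusp10 and the shared peak 0.596 kb below Dusp4 fell just outside the genes. Within 10 kb outside the genes, these included, the shared, WT-only and KO-only sites were 11, 1 and 5. Of these sites 5.88% were WT-only and 29.4% KO-only, beside 19.4% and 16.9% over all genes. From 10 to 100 kb away they were 14, 8 and 3, with 32.0% WT-only and 12.0% KO-only beside 26.2% and 21.8%. At gene ends (within 1 kb) 0 of 7 WT peaks were WT-only (13.6% of all WT peaks at gene ends) and 1 of 8 KO peaks was KO-only (14.3%), the one near the upper end of Dusp16. In gene bodies 7 of 12 WT peaks were WT-only (35.9% of all) and 5 of 10 KO peaks were KO-only (30.0%). Between genes these numbers were 9 of 29 (35.7%) and 8 of 28 (30.7%). The farthest peak inside the 100 kb limit was the WT-only peak of Dusp6 at 93.1 kb, and the nearest one beyond it was a KO-only peak 106 kb below Dusp4.

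Other genes of the MAP kinase pathway showed no common direction. The 68 genes of 6 lists had 1.69 genotype-specific and 2.91 shared sites per gene, against 4.29 and 4.57 for the Dusp genes. Of the 68 genes, 13 had more KO-only than WT-only peaks, 19 had more WT-only peaks and 36 had equal numbers, with a median difference of 0, as over all genes with a peak. The 7 Dusp genes had a median difference of -1. The other 13 DUSP genes, most of them atypical phosphatases, had 20 shared, 2 WT-only and 3 KO-only sites. No gene of that list had a difference of 2 or more, but the 13 genes had only 25 sites in all. Genes with few sites can hardly reach such a difference. At the 8 MAP kinase genes, which these phosphatases inactivate, 9 peaks were WT-only and 4 were KO-only. In the kinases upstream of them (14 genes, 14 WT-only and 12 KO-only peaks), Map3k8, a kinase that activates the ERK pathway, had 4 KO-only and 1 WT-only peaks, whereas Map3k1 had 1 and 4 and Map3k5 0 and 3. Among 10 other inhibitors of Ras and ERK (16 WT-only and 12 KO-only), the feedback inhibitor Spry2 had 2 KO-only and 0 WT-only peaks, Spred2 2 and 5, and Rasa1, a Ras GTPase-activating protein, 0 and 2. For Ras activation below the T cell receptor the numbers were 13 and 10 over 8 genes, with 3 WT-only and 1 KO-only peaks at the adaptor gene Lat, and for effectors and target factors 11 and 9 over 15 genes, with 2 and 0 at Egr2, an early response factor.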

How the data were processed

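The labels name a single peak file for the samples of a genotype. The authors deposited a score with each peak, and it is 1 throughout. Per the submitters' processing notes, HISAT2 2.1.0, HOMER 4.10.1, SAMtools 1.3, cutadapt 1.12, deepTools, FastQC and Trim Galore 0.4.2 were used, with build mm10. The sources used here do not give the peak threshold, any shift for transposase insertion or how replicates were joined. Nearly all peaks are 219 bp (WT) or 193 bp (KO) wide. Peaks were shared when they overlapped by at least 1 bp. Genes, start sites and windows came from RefSeq tables of GRCm38.p6, without exons. Peak numbers followed the row order of the lists (Spearman correlation per chromosome, across peaks, lowest value 0.998 in each list). Python 3.11.15, numpy 2.4.6, pandas 2.3.3, scipy 1.17.1 and matplotlib 3.10.9 were used. Overlap and assignment were checked against bedtools 2.31.1 on 1000 simulated peaks, with 0 differences. No test was made, because no values per replicate were at hand.

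The 7 genes and the lists were chosen with earlier results of these data known. All 7 are named, with, in each pathway list, the top genes of each direction (at most 2) whose difference reached 2 peaks, and up to 5 genes whose counts were nearest to those of the member with most peaks. A pathway gene that met this rule is not reported here. Arhgap15, B3gnt2 and Camk4 are the first in the alphabet of those tied at 1 site. Alternatives changed the overlap rule, the part of the lists used and the assignment. A site may act on a gene other than the one it was assigned to.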

Additional observations from a re-analysis of the deposited data

How the results depend on the processing

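No paired analysis was possible because the peak lists join the 3 replicates of a group, and for the same reason no replicate could be left out. The evenness of the whole set depended on the settings. KO-only minus WT-only peaks of the 7 genes, -2 in the main setting, turned to 4 among the earlier 50% of the peaks of each list (9 KO-only and 5 WT-only peaks) and to 3 within 10 kb of the genes (11 and 8, with 18 shared). With the limit at 50% of the highest peak number instead, an alternative added after the results were seen, it was 0 (10 of each). Across the other 5 settings it lay between -3 and -1. Among single genes the direction turned within 10 kb, to 1 at Dusp5 and to 1 at Dusp6. In the other settings the Dusp5 difference was -1 or 0. With peaks given to the nearest transcription start, an alternative added after the data were seen, the difference over the 6 genes with a start site was -9 instead of -6. The unknown depth limits all of these counts: a site just under the peak threshold of one list would be counted as specific to the other.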

Other observations

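Sites continued beyond the 100 kb limit at genes with open space around them. Between 100 and 200 kb from Dusp4, Dusp6 and Dusp10, with no protein-coding gene nearer, lay 20 further sites, 12 shared, 5 WT-only and 3 KO-only. Each of the 3 genes had 4 shared sites there. Dusp6 had 3 WT-only and 1 KO-only sites, and Dusp4 and Dusp10 had 1 of each. At Dusp1, Dusp2, Dusp5 and Dusp16 no site met this description.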
